A study of Mus musculus and Homo sapiens with 60 samples.

Results

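Myc ChIP-seq peaks of P493-6 cells in which the Myc transgene had been switched off and then on again were set against those of P493-6 cells in which it had not been switched off. The members were all 18257 Myc peaks of the 24 h release list and all 26146 Myc peaks of the high Myc list, chosen by their sample titles, which is 2 of the 60 samples of the series and 2 of the 5 P493-6 Myc lists. The 24 h release cells had received 0.2 µg/mL tetracycline for 72 h and had then been kept in fresh medium without it for 24 h. The high Myc cells were untreated, with the transgene expressed throughout. Both were grown in RPMI with tetracycline-free serum and precipitated with the same antibody lot. Each condition was 1 library, so there is no spread between replicates and no test between conditions, and every statement compares these libraries. The 3 descriptors of the sites were the H3K4me3, H3K27ac and RNA polymerase II (RNAPII) lists of the 24 h release cells. No such list of the high Myc cells was used here, so a mark is always a mark of the 24 h release cells.

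P493-6 is an established human B-cell line that carries a Myc transgene repressed by tetracycline. Its growth can also be driven by a viral regulator fused to the oestrogen receptor, which responds to 4-hydroxytamoxifen (OHT). Myc pairs with Max and binds E-box sequences, and it is found mostly at open promoters and enhancers. H3K4me3 marks the start sites of active or poised genes, H3K27ac marks active promoters and enhancers, and RNAPII shows where transcription machinery is loaded. Supporting lists came from cells under tetracycline (0 h, 791 Myc peaks), from cells with tetracycline and 200 nM OHT, which activates endogenous Myc (low Myc, 4309 Myc peaks), and from cells at 1 h of release (8666 Myc peaks).

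The 24 h release list had fewer and narrower peaks than the high Myc list. It covered 9.99 Mb, against 18.3 Mb in the high Myc list, and its number of peaks was 0.70 of the high Myc number. Median peak width was 471 bp (quartiles 347 to 662) in the 24 h release list and 587 bp (437 to 845) in the high Myc list. The authors' score, the peak caller's measure of how far a peak stands above background, had a median of 166.59 in the 24 h release list and 229.145 in the high Myc list. Scores of separate libraries are not on a common footing and serve here to rank peaks within a list. Scores pile up from about 3100, and 7 peaks of the 24 h release list and 79 of the high Myc list reached that value. Read depth is not known from the lists, so its part in peak number, width and score was not tested. The high Myc library was submitted with a sample number in its description, as were the tetracycline and low Myc libraries. The 24 h and 1 h release libraries carry none, and any difference in handling between these submissions cannot be told apart from the treatments.

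In these lists of unequal length, the 24 h release sites were largely contained in the high Myc sites, and not the other way round. Of the 24 h release peaks, 15531 (85.1%) overlapped a high Myc peak by at least 1 bp and 2726 (14.9%) did not. Of the high Myc peaks, 14461 (55.3%) overlapped a 24 h release peak and 11685 (44.7%) did not. Merged together, the lists gave 28628 regions, of which 14217 held both, 2726 the 24 h release list only and 11685 the high Myc list only. Across chromosomes 1 to 22 the shared percentage ran from 81.2% to 90.8% in the 24 h release list and from 51.2% to 58.6% in the high Myc list. On chromosome X these were 75.9% and 43.3%. The high Myc list was the longer on each of these chromosomes, and peaks pairing mostly 1 to 1 then give it the lower percentage. The chromosomes are therefore no separate support for the asymmetry, which was smaller with equal numbers of peaks (75.5% and 69.2%). When a peak had to be covered over 50% of its own length, 83.6% of 24 h release peaks and 44.1% of high Myc peaks were shared.

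Where both lists had a peak, their middles lay close together and the 24 h release peak was the narrower. There were 12893 pairs in which 1 peak of each list overlapped only the other. The median width was 510 bp for the 24 h release peak and 730 bp for the high Myc peak, and the median ratio within a pair was 0.739 (quartiles 0.584 to 0.890). The 24 h release peak was narrower in 11273 pairs (87.4%). It lay wholly inside the high Myc peak in 64.7% of pairs, whereas the high Myc peak lay inside the 24 h release peak in 3.97%. The middles were a median of 58.5 bp apart, and 70.8% of pairs had them within 100 bp. A single high Myc peak covered 2 or more 24 h release peaks in 1216 cases, and a single 24 h release peak covered 2 or more high Myc peaks in 244.

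Score ranks of the pairs moved together. Across the 12893 pairs the Spearman rho of the scores was 0.682, given as a description, since these sites share 2 libraries and wide peaks score high in both. In 6519 pairs (50.6%) neither peak scored below the median of its list, and in 2688 both did. The 24 h release peak was above and the high Myc peak below in 953 pairs, and the reverse held in 2733. Of 1530 paired 24 h release peaks in the highest score decile of their list, 1223 (79.9%) had a partner in the highest decile of the high Myc list. The percentile was at least 30 points higher in the 24 h release list in 585 pairs and at least 30 points higher in the high Myc list in 2224. In lists of unequal length, these counts cannot show whether binding changed. RNAPII lay on 40.5% of the pairs ranked higher in the 24 h release list, on 41.6% of those ranked higher in the high Myc list, and on 63.1% of the 5396 pairs whose percentiles were within 10 points. H3K4me3 lay on 68.2% of the pairs ranked higher in the 24 h release list, 75.5% of those ranked higher in the high Myc list and 84.3% of the pairs within 10 points. These groups were not matched for rank. Peaks of a pair at least 30 points apart cannot both be in the highest decile, where marks are most frequent. In the 24 h release list RNAPII lay on 28.5% of peaks in the lowest decile and 85.5% in the highest. The percentages therefore cannot link a rank difference to the marks.

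The share of sites found in the other list was higher at higher scores in both lists and was almost complete at the top. In the 24 h release list this share was 60.9% (95% interval 58.6 to 63.1) in the lowest score decile and 99.7% in the highest. In the high Myc list it was 18.6% (17.1 to 20.1) in the lowest decile, 46.4% in the fifth and 99.5% in the highest. The highest decile thus left 5 peaks of the 24 h release list and 12 of the high Myc list without a partner. Intervals here and below are exact binomial ones and cover counting error only.

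**Figure D1:**
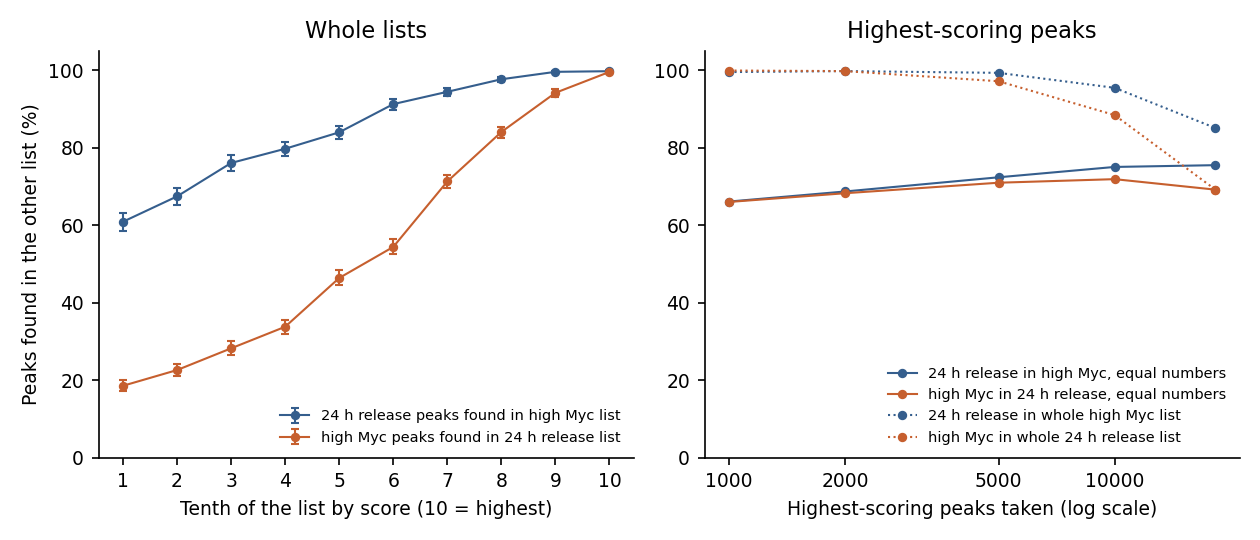
Left, percentage of Myc peaks found in the other list (y axis) by score decile of the own list (x axis, 10 is the highest), with 95% exact binomial intervals. Right, the same for the highest-scoring peaks of each list (x axis, log scale), solid lines against an equal number of peaks of the other list and dotted lines against the whole other list. Sharing reaches 99.7% in the highest decile of the 24 h release list and 99.5% in that of the high Myc list, while against equal numbers both lines lie between 66.0% and 75.5%.

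With equal numbers of highest-scoring peaks, a smaller percentage of 24 h release peaks and a larger percentage of high Myc peaks had a partner than in the whole lists. Taking 18257 from each, 75.5% of the 24 h release peaks and 69.2% of the high Myc peaks were shared. Lists of equal length whose peaks pair mostly 1 to 1 give similar percentages by construction, so the closeness of these values is not a result. With the 5000 highest-scoring peaks of each list, 72.4% of the 24 h release and 71.0% of the high Myc peaks were shared. With 1000 from each, these were 66.1% of the 24 h release and 66.0% of the high Myc peaks. At 18257 from each, 4475 24 h release peaks lacked a partner of equal standing and 2726 lacked one in the whole high Myc list. For the high Myc peaks both counts are 5628 by construction, because 18257 peaks are the whole 24 h release list. At the top 5000, 1382 24 h release and 1452 high Myc peaks lacked a partner among the other list's 5000, but 35 24 h release and 143 high Myc peaks lacked one in the whole other list. Among the top 1000 these were 5 peaks of the 24 h release list and 1 of the high Myc list. High-scoring 24 h release peaks stayed narrower at equal numbers, with a median width of 803 bp among the top 5000, against 1121.5 bp in the high Myc list. The sizes 1000, 2000 and 10000 were added after the data had been seen.

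Shared sites carried each of the 3 marks more often than sites of one list. H3K4me3 lay on 82.8% of shared 24 h release peaks and 57.2% (55.3 to 59.1) of peaks found in the 24 h release list only, with 79.0% over the whole list. It lay on 81.9% of shared high Myc peaks and 55.6% (54.7 to 56.5) of peaks found in the high Myc list only, with 70.2% over the whole list. H3K27ac was the most frequent mark, on 93.6% of shared peaks of either list. It lay on 82.2% (80.8 to 83.7) of 24 h release only peaks and 75.2% (74.4 to 76.0) of high Myc only peaks, while the whole lists stood at 91.9% in 24 h release and 85.4% in high Myc. RNAPII separated the classes by the largest factor of the 3. It was found on 56.4% of shared 24 h release peaks and 21.2% (19.6 to 22.7) of 24 h release only peaks, with 51.1% over the list. The high Myc list had RNAPII on 57.1% of shared peaks and 21.7% (21.0 to 22.5) of its own peaks, with 41.3% over the list.

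**Figure D2:**
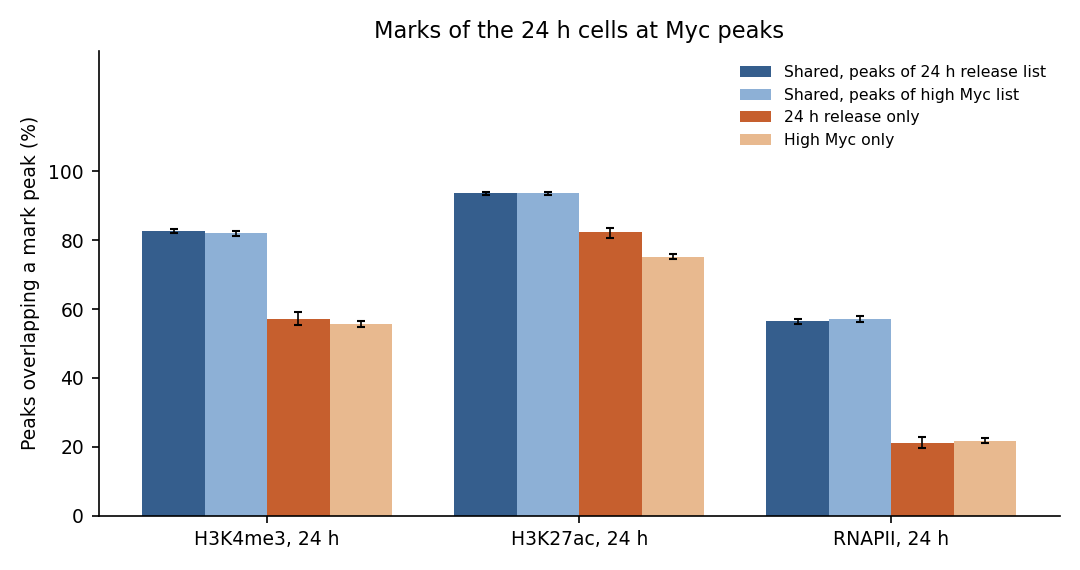
Percentage of Myc peaks overlapping an H3K4me3, H3K27ac or RNAPII peak of the 24 h release cells (y axis), for shared peaks of each list, 24 h release only peaks and high Myc only peaks (bars, with 95% exact binomial intervals). The shared bars are higher for each mark, and for RNAPII they stand at 56.4% and 57.1%, against 21.2% and 21.7% in the one-list classes.

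The same contrast was present within score deciles. In the 7 deciles of the 24 h release list with at least 50 one-list peaks, shared peaks were higher for each mark in all 7, by 16.1 to 21.5 points for H3K4me3, 3.31 to 10.1 for H3K27ac and 17.1 to 24.2 for RNAPII. In the 9 such deciles of the high Myc list they were higher in all 9, by 13.8 to 24.2 points for H3K4me3, 9.79 to 18.1 for H3K27ac and 15.8 to 27.8 for RNAPII. Within the lowest decile, for example, RNAPII lay on 37.9% of shared and 13.7% of one-list 24 h release peaks, and on 34.6% of shared and 13.4% of one-list high Myc peaks.

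Combinations of marks showed what kind of site each class held. All 3 marks together, the pattern of an active promoter with polymerase, were found on 54.1% of shared 24 h release peaks and 54.9% of shared high Myc peaks. They were found on 16.9% of 24 h release only peaks and 19.6% of high Myc only peaks. H3K4me3 without RNAPII was the most frequent pattern among one-list peaks, at 39.7% in 24 h release only and 35.3% in high Myc only. H3K27ac without H3K4me3, a pattern typical of enhancers, made up 27.9% of 24 h release only peaks and 24.6% of high Myc only peaks, against 12.7% and 13.3% of the shared peaks of these lists. None of the marks lay on 343 (12.6%) of the 24 h release only peaks and 2220 (19.0%) of the high Myc only peaks. Among shared peaks this was 3.81% in the 24 h release list and 3.99% in the high Myc list. RNAPII with neither histone mark was rare, but more frequent in 24 h release only peaks, at 2.35%, than in high Myc only peaks, at 0.753%.

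Polymerase had been mapped under tetracycline as well as at 24 h, which separates sites already loaded before release. RNAPII at both times lay on 34.5% of shared 24 h release peaks and 35.6% of shared high Myc peaks. It lay on 12.8% of 24 h release only peaks and 10.6% of high Myc only peaks. RNAPII at 24 h but not under tetracycline lay on 21.9% and 21.5% of the shared peaks of these lists, on 8.36% of 24 h release only peaks and on 11.1% of high Myc only peaks. RNAPII under tetracycline but not at 24 h was found on 4.04% of 24 h release only peaks and 1.59% of high Myc only peaks. The RNAPII lists differ in length, with 24613 peaks at 24 h and 13026 under tetracycline, and their depth is unknown.

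With whole lists, the one-list classes differed from each other less in H3K4me3 and RNAPII than in H3K27ac. The direction for H3K4me3 and RNAPII depended on how the peaks were taken. For H3K27ac no negative difference went beyond counting error. The difference, 24 h release only minus high Myc only, was 1.57 percentage points for H3K4me3. Its interval, combined from the exact ones of both classes, was -0.52 to 3.65. It was -2.23 points (-4.18 to -0.29) when a peak had to be covered over 50% of its length. In the upper-scoring part of each list, split at its median, it was -1.18 points (-3.99 to 1.56). With only the upper-scoring H3K4me3 peaks counted, it was -9.84 points (-11.8 to -7.83). For RNAPII the difference was -0.55 points (-2.24 to 1.20), -1.84 (-3.58 to -0.09) with equal numbers and 8.68 (5.05 to 12.3) in the top 5000. For H3K27ac it was 7.01 points (5.33 to 8.64), and 3.52 (1.99 to 5.05) with equal numbers. It was -1.09 (-3.26 to 0.94) in the upper-scoring part of each list and -0.83 (-2.56 to 0.88) in the top 5000. With peaks set to 500 bp the difference was 8.37 points for H3K4me3, 9.67 for H3K27ac and 7.67 for RNAPII. Over whole lists, the 24 h release percentages were higher by 8.77 points for H3K4me3, 6.50 for H3K27ac and 9.83 for RNAPII. With equal numbers these differences were 2.47 points for H3K4me3, 1.77 for H3K27ac and 0.87 for RNAPII.

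Sites of one list were narrow and low in rank. The median width was 506 bp in shared 24 h release peaks and 757 bp in shared high Myc peaks, and it was 321 bp (quartiles 253 to 403) in 24 h release only peaks and 459 bp (377 to 578) in high Myc only peaks. The median score percentile was 56.4 in shared 24 h release peaks, 70.2 in shared high Myc peaks, 21.2 in 24 h release only peaks and 29.0 in high Myc only peaks. No lower than the median of their list scored 319 (11.7%) of the 24 h release only peaks and 2525 (21.6%) of the high Myc only peaks. At matched rank the width gap nearly closed: in the fifth decile shared and one-list peaks had medians of 438 and 398 bp in the 24 h release list, and of 560 and 533 bp in the high Myc list.

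**Figure D3:**
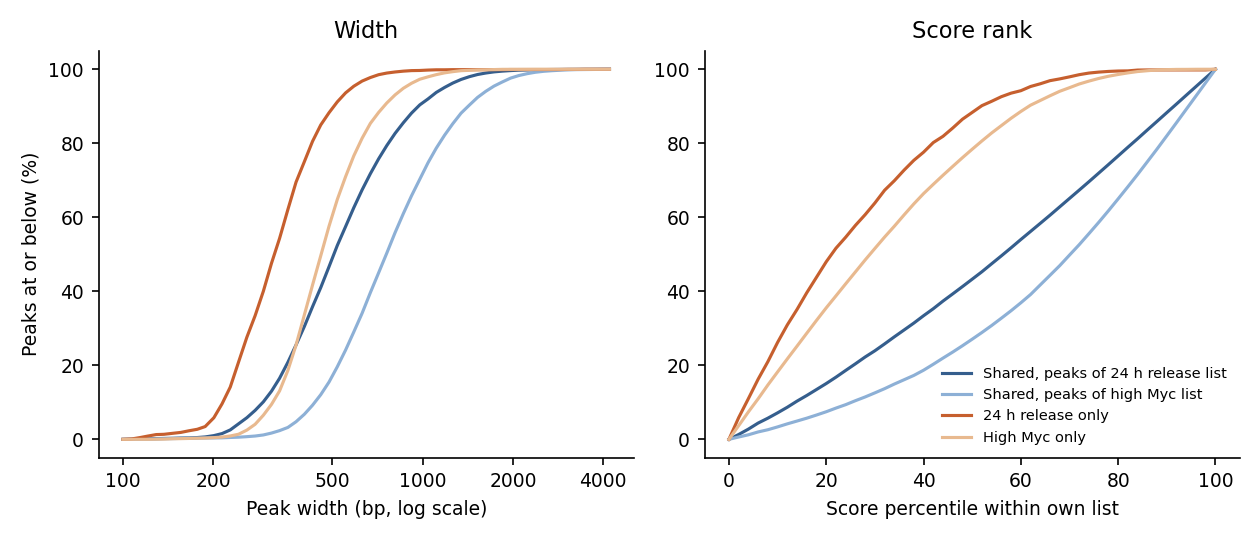
Cumulative percentage of Myc peaks (y axes) by width in bp (left, log scale) and by score percentile within the own list (right), for shared peaks of each list, 24 h release only peaks and high Myc only peaks. The one-list curves lie to the left of the shared curves of their own list, with median widths of 321 bp in 24 h release only and 459 bp in high Myc only peaks.

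Many one-list peaks lay some way from any peak of the other list. The distance to the nearest peak of the other list had a median of 9513 bp for 24 h release only peaks and 15717 bp for high Myc only peaks. It was at most 1000 bp for 539 (19.8%) of the 24 h release only peaks and 1802 (15.4%) of the high Myc only peaks. A shared chromatin region was also possible without an overlap. Of the 1559 24 h release only peaks on H3K4me3, 514 (33.0%) lay on an H3K4me3 region that also held a high Myc peak. Of the 6499 high Myc only peaks on H3K4me3, 1912 (29.4%) lay on a region that also held a 24 h release peak. For H3K27ac these were 33.5% in 24 h release only and 27.3% in high Myc only, and for RNAPII 20.5% in 24 h release only and 12.1% in high Myc only. Of all regions, 34.7% for H3K4me3, 20.6% for H3K27ac and 33.3% for RNAPII held peaks of both lists. A further 13.8%, 10.8% and 10.0% held high Myc peaks only, and 3.38%, 2.49% and 1.94% held 24 h release peaks only. The percentages of one-list peaks therefore do not show a preference for regions that hold the other list.

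Seen from the chromatin side, the regions occupied in one condition differed in shape and strength between the 2 histone marks. Of 29953 H3K4me3 regions, 10399 (34.7%) held peaks of both lists, 1013 (3.38%) of the 24 h release list only, 4143 (13.8%) of the high Myc list only and 14398 (48.1%) of neither. Their median widths were 2940 bp for both, 1821 bp for 24 h release only, 2123 bp for high Myc only and 1302 bp for neither. Of 59557 H3K27ac regions, 12251 (20.6%) held both, 1481 (2.49%) the 24 h release list only, 6404 (10.8%) the high Myc list only and 39421 (66.2%) neither. Here the 24 h release only regions were the broader ones, with a median of 2954 bp, against 1972 bp in high Myc only regions. Regions with both had 3025 bp and regions with neither had 1312 bp.

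For both histone marks, the share of regions with a top score followed the same order as their widths. Among H3K4me3 regions, 32.8% of the whole list reached a score of 3100 or more. This was 64.0% of regions with both lists, 16.6% (14.3 to 19.0) of 24 h release only regions, 43.8% (42.3 to 45.3) of high Myc only regions and 8.18% of regions with neither. Among H3K27ac regions 10.6% of the list reached it: 33.0% with both, 23.9% (21.8 to 26.2) in 24 h release only, 11.3% (10.5 to 12.1) in high Myc only and 3.08% with neither. H3K4me3 lay on 63.1% of the 24 h release only and 68.9% of the high Myc only H3K27ac regions. RNAPII regions did not clearly follow this order. Their median widths were 743 bp with both, 529 bp in 24 h release only, 554 bp in high Myc only and 409 bp with neither. A score of 3100 was reached by 1.36% of the RNAPII list and by 2.33% (2.01 to 2.68) of regions with both. It was reached by 3.14% (1.77 to 5.13) of 24 h release only, 0.892% (0.560 to 1.35) of high Myc only and 0.795% of regions with neither. The intervals of 24 h release only regions and regions with both overlap, so their order is not resolved.

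This difference between the marks was also seen with equal numbers of Myc peaks. With the 18257 highest-scoring peaks of each list, H3K27ac regions had a median of 2994 bp in 24 h release only and 1939 bp in high Myc only. A score of 3100 was reached by 26.2% of the 24 h release only and 11.0% of the high Myc only regions. H3K4me3 regions had a median of 1988.5 bp in 24 h release only and 2243 bp in high Myc only, and 25.6% of the 24 h release only and 48.9% of the high Myc only regions reached 3100. These region widths and scores were compared after the data had been seen, and since the marks were mapped in the 24 h release cells, how broad or strong the same regions were in high Myc cells was not tested.

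**Figure D4:**
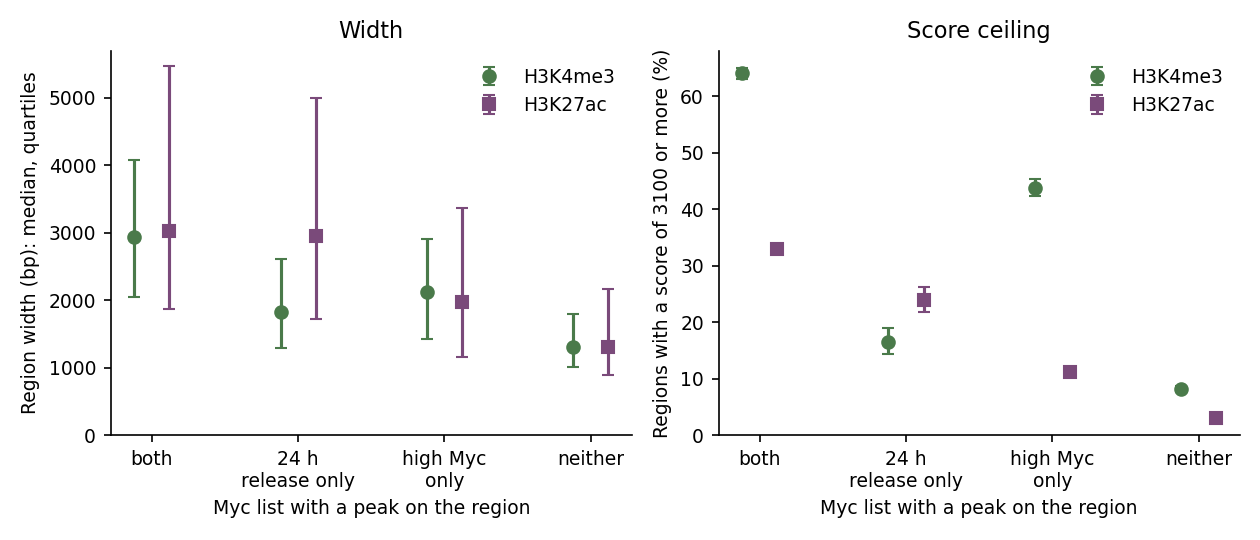
Left, width in bp of H3K4me3 (circles) and H3K27ac (squares) regions of the 24 h release cells, as medians with quartiles, by which Myc list had a peak on the region. Right, percentage of these regions with a score of 3100 or more, with 95% exact binomial intervals. H3K27ac regions with 24 h release peaks only are broader than those with high Myc peaks only (2954 and 1972 bp), and H3K4me3 regions are narrower (1821 and 2123 bp).

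The other Myc lists of the line placed most of their own sites in the shared class. Of the 8666 peaks at 1 h of release, 7320 (84.5%) were found in both lists, 261 (3.01%) in the 24 h release list only, 717 (8.27%) in the high Myc list only and 368 in neither. Of the 4309 low Myc peaks, 3737 (86.7%) were found in both, 90 (2.09%) in 24 h release only, 328 (7.61%) in high Myc only and 154 in neither. The high Myc list is the longer, and with equal numbers the 24 h release only and high Myc only shares were 6.39% and 6.38% for the 1 h peaks. For the low Myc peaks they were 4.36% in 24 h release only and 6.31% in high Myc only. In the whole lists without tetracycline peaks, the low Myc shares were 0.611% in 24 h release only and 8.53% in high Myc only. The 90 low Myc peaks found in 24 h release only lay on H3K27ac in 6.67%, and 6 of them were mitochondrial. Of the 791 tetracycline peaks, 518 (65.5%) were found in both, 108 (13.7%) in 24 h release only, 24 (3.03%) in high Myc only and 141 in neither.

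Read in the other direction and over whole classes, shared sites had more often been occupied at 1 h or at low Myc. The 1 h list contained 46.7% of shared 24 h release peaks and 48.3% of shared high Myc peaks. It contained 9.79% of 24 h release only peaks and 5.39% of high Myc only peaks, with 41.2% over the whole 24 h release list and 29.1% over the high Myc list. The low Myc list contained 23.1% and 24.5% of the shared peaks of these lists, 3.26% of 24 h release only peaks and 2.56% of high Myc only peaks, with 20.2% over the 24 h release list and 14.7% over the high Myc list. RNAPII under tetracycline lay on 16.8% of 24 h release only and 12.2% of high Myc only peaks, with 33.7% and 26.3% over these lists. Shared peaks rank higher, and these classes were not matched for rank. In each decile with at least 50 one-list peaks, shared peaks were still more often in the 1 h and low Myc lists. The low Myc gap was small in the seventh decile of the high Myc list, at 8.21% of shared and 7.59% of one-list peaks. The 1 h list held 37.4% and 13.3% there. In the seventh decile of the 24 h release list these were 18.1% and 5.88% for low Myc, and 48.5% and 21.6% for 1 h.

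Over whole classes, sites of the tetracycline list were about as frequent among 24 h release only peaks as among shared peaks, and rare among high Myc only peaks. They numbered 101 (3.71%) of 24 h release only peaks and 20 (0.171%) of high Myc only peaks, with 3.30% over the 24 h release list and 1.97% over the high Myc list. Shared peaks had 3.23% in the 24 h release list and 3.42% in the high Myc list. Shared peaks rank higher, however, and at matched rank the 24 h release classes differed. In each decile of that list with at least 50 one-list peaks, tetracycline sites were more frequent among one-list than among shared peaks. They made up 1.54% of one-list and 0.629% of shared peaks in the lowest decile, and 5.88% and 2.09% in the seventh. The 108 tetracycline peaks found in the 24 h release list only lay on H3K4me3 in 13.0%, on H3K27ac in 2.78% and on RNAPII in 39.8%, and 7 were on the mitochondrial chromosome. Of the 518 found in both lists, 74.7% lay on H3K4me3, 72.0% on H3K27ac and 81.9% on RNAPII. Among the 100 highest-scoring peaks of each one-list class, 15 of the 24 h release only and 1 of the high Myc only peaks were tetracycline peaks. The 1 h list held 32 of the 24 h release only and 22 of the high Myc only ones, and the low Myc list held 15 of the 24 h release only and 23 of the high Myc only ones. These sets of 100 are of unlike rank, with lowest score percentiles of 64.4 in 24 h release only and 82.4 in high Myc only. The 24 h release only peaks found in the tetracycline and low Myc lists include the mitochondrial ones named below.

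**Figure D5:**
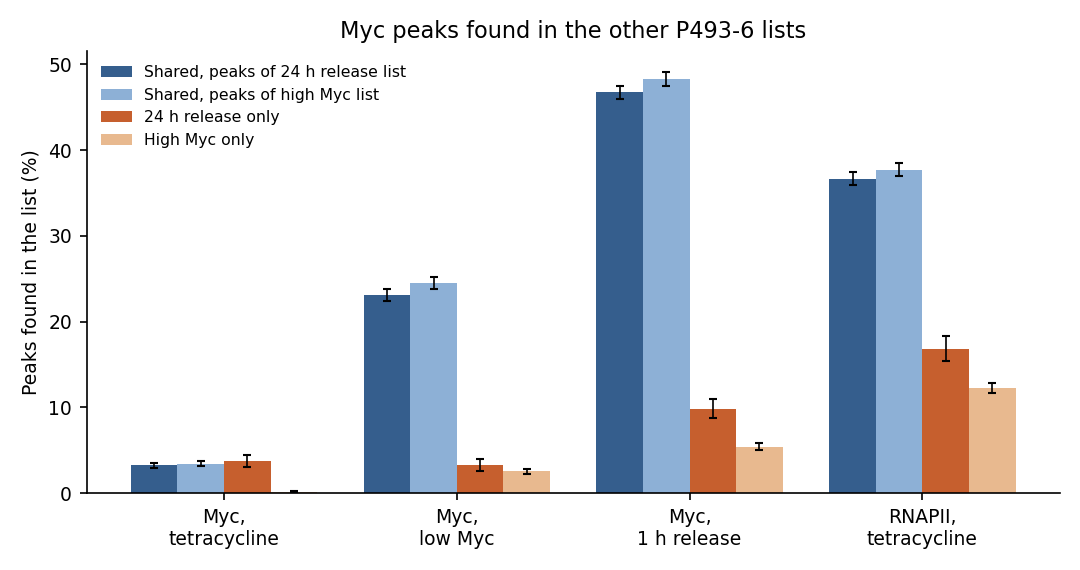
Percentage of Myc peaks that overlap a peak of the tetracycline, low Myc or 1 h release Myc lists or of the tetracycline RNAPII list (y axis), for shared peaks of each list, 24 h release only peaks and high Myc only peaks, with 95% exact binomial intervals. The 1 h list holds 46.7% and 48.3% of the shared peaks, against 9.79% of 24 h release only and 5.39% of high Myc only peaks. The classes are not matched for score rank.

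The 5 highest-ranked peaks of each class are given by hg19 position (1-based), with no gene assignment made here. Of the 24 h release only peaks, 4 of the 5 were mitochondrial. They were chrM:1211-4532, with a score of 3100, chrM:4662-5572, chrM:5747-6765 and chrM:6862-8794, all of them in the tetracycline and low Myc lists. None could lie on a mark, since each of the 3 mark lists holds 0 mitochondrial peaks. The remaining one, chr5:149778646-149781601, was 2956 bp wide with a score of 1270.66 and lay 84 bp from a high Myc peak. It lay on RNAPII with neither histone mark, and it was in the tetracycline and 1 h lists. The next nuclear peaks, chosen after their values had been seen, scored far lower: chr14:69252822-69254044 (407.21, on H3K27ac and RNAPII), chr1:202585082-202585824 (396.87, on H3K4me3 and H3K27ac) and chr3:69141074-69141927 (396.83, on all 3 marks).

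The high Myc only peaks of highest rank were ordinary nuclear sites. The first, chr17:80308856-80310238, was 1383 bp wide with a score of 1509 and carried H3K27ac alone, 347 bp from a 24 h release peak. The second, chr1:167596840-167598177, scored 1290.73, carried all 3 marks and lay 1497 bp from one. The third was chr14:96130484-96131558 (1249.73, H3K27ac only), the fourth chr12:57848149-57849440 (1242.09, H3K4me3 and H3K27ac) and the fifth chr10:71639857-71641087 (1176.44, H3K4me3 and H3K27ac), the last 59984 bp from the nearest 24 h release peak. All 5 were in the low Myc list and none was in the 1 h list.

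The highest-ranked shared pairs carried all 3 marks. At chr1:67894349-67897249 the 24 h release peak was 2901 bp wide with a score of 2679.13, and its high Myc partner was 2991 bp wide with a score of 3100. At chr16:4321061-4322811 the widths were 1751 bp in 24 h release and 2158 bp in high Myc, with scores of 3099.23 and 3100. The others were chr10:103911692-103912932 (24 h release score 2559.12), chr12:3860943-3862504 (2337.17) and chr17:17494186-17495576 (2604.45). All 5 were in the low Myc and 1 h lists, and the high Myc score was 3100 in each, so their order within the high Myc list is a tie.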

How the data were processed

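Myc ChIP-seq peak lists of 24 h release and high Myc P493-6 cells, with 7 further P493-6 lists, were analysed as deposited. The submitters' processing notes name BWA 0.6.2, SAMtools and MACS 1.4.1, and their settings are not given in the sources used here. Each library came with a separate list of 5 columns and was thus called by itself. The series' design text names an input library from another series as the control of the Myc and RNAPII lists. The deposited score is the authors' value for a peak, MACS's -10 log10 p-value as judged from its range, and it served to rank peaks inside 1 list and never between lists. The lists hold 0 columns of other samples. The notes give mm9 for the high Myc sample, but its chromosome 1 peaks reach 249219825, close to 249219697 in the 24 h release list, and it was treated as hg19.

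Peaks were sorted, compared and counted with Python 3.11.15, numpy 2.4.6, pandas 2.3.3 and scipy 1.17.1, and drawn with matplotlib 3.10.9. A peak was shared when at least 1 bp overlapped a peak of the other list, and marked when it overlapped a mark peak by as much. The overlap code was tested on 6 simulated lists with 0 wrong calls, and its counts equalled those of bedtools 2.31.1 in 10 of 10 comparisons. Percentages have exact (Clopper-Pearson) 95% intervals that cover counting error only. Medians of mark regions were compared without a test. Read depth is unknown. With 1 library per condition no test was made. The peaks named were the 5 of highest score percentile in each class (for shared pairs, by the lower of both percentiles), ties broken by position. The classes, lists and named-peak rule were chosen with earlier results of these data known. Alternatives were another overlap, a fixed width, score filters, equal numbers, chromosomes 1 to 22 and covered length.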

Additional observations from a re-analysis of the deposited data

How the results depend on the processing

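The upper-scoring part of a list is split off at its median. The limits are 1 library per condition, unknown depth, and marks from 24 h release cells only. No paired analysis was possible because each condition has 1 library and no test was made. Of the results recomputed, 31 stayed within their counting interval, 47 moved outside it in the same direction and 10 turned round. Settings with the tetracycline peaks left out or sharing within 1000 bp, and all settings for the low Myc list, the 1 h list and the region widths, were chosen after seeing the data.

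Of 24 h release and high Myc peaks, the shared percentages were 83.6% and 44.1% with 50% overlap, 85.7% and 57.9% in the upper-scoring part of each list, 75.5% and 69.2% with equal numbers, 72.4% and 71.0% in the top 5000, and 88.0% and 62.2% within 1000 bp. It was 82.2% for 24 h release with 500 bp peaks and 54.5% for high Myc without tetracycline peaks. The ratio of 24 h release over high Myc was 0.55 by covered length.

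Differences over all peaks, 24 h release minus high Myc, were smaller than in the whole lists wherever the Myc lists were cut to their best peaks. The RNAPII difference was larger in the top 5000 than with equal numbers. For H3K4me3 they were 4.68 points in the upper-scoring part of each list, 2.47 with equal numbers, 0.46 in the top 5000 and 7.07 with the stronger mark peaks. For H3K27ac they were 2.56, 1.77, -0.18 and 9.89 points in the same settings, and 7.34 with 50% overlap. For RNAPII they were 7.51, 0.87 and 2.32 points in the first 3 settings and 12.0 with 50% overlap.

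Shared minus one-list differences in H3K4me3 kept their sign in each setting. In the 24 h release list they were 23.2 points with 50% overlap, 17.7 with 500 bp peaks, 18.0 in the upper-scoring part of each list, 23.1 with equal numbers, 9.00 in the top 5000 and 36.0 with the stronger mark peaks. In the high Myc list they were 18.6, 16.6, 23.5, 9.65 and 24.8 points in the same settings without the 500 bp one.

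The 24 h release only minus high Myc only differences turned round most often, and the cause was not tested. In the upper-scoring part of each list, the difference was within counting error for each mark. For H3K4me3 they were -2.23 points with 50% overlap, -1.18 in the upper-scoring part of each list, -9.84 with the stronger mark peaks, 8.37 with 500 bp peaks and 3.70 without tetracycline peaks. For H3K27ac they were -1.09 in the upper-scoring part of each list and -0.83 in the top 5000, both within counting error. They were 9.67 with 500 bp peaks, 3.52 with equal numbers, 11.2 with the stronger mark peaks and 10.1 without tetracycline peaks. For RNAPII they were 7.67 with 500 bp peaks, 0.48 in the upper-scoring part of each list and 8.68 in the top 5000.

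The share of low Myc peaks found in 24 h release only minus high Myc only was -5.52 points as reported, -1.95 with equal numbers and -7.92 without tetracycline peaks. For 1 h peaks it was -5.26 points as reported, 0.0115 with equal numbers, -7.12 with 50% overlap and -6.37 without tetracycline peaks. The H3K27ac region width difference was 1209.5 bp in the upper-scoring part of each list, against 982 bp as reported.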
